A study of Mus musculus with 12 samples.

Results

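The genes described here encode 10 enzymes that use choline or ethanolamine or that make and remodel phosphatidylcholine: Pemt, Chka, Chkb, Pcyt1a, Pcyt2, Cept1, Chpt1, Lpcat3, Chdh and Etnk2. They were picked by gene name, and all 10 were found among the 11791 genes measured in mouse liver. Each of the 12 libraries was a pool of RNA from 2 male mice that were 10 weeks old and had eaten, for 3 weeks, a diet deficient in methionine and choline (MCD), so no group on a choline-sufficient diet is part of the data. The control group (4 pools) was of genotype Lyzs cre, in which a recombinase is driven from the lysozyme locus of myeloid cells. The KO group (4 pools) was of genotype Lyzs cre p38g/d, a knockout of the p38γ and p38δ kinases that this driver directs to myeloid cells. In the anti-Ly6G group (4 pools), Lyzs cre mice were given an antibody to Ly6G, a surface protein of neutrophils, although the sample titles read GR1. The strain label was C57BL/6 throughout. The label for mitochondria read C57 for all control pools and the first pair of KO pools, and NZB for the remaining KO pools (3 and 4) and every anti-Ly6G pool. Between anti-Ly6G and control, antibody and mitochondria label therefore cannot be told apart, except through a fit that takes the effect of the label from the KO pools. The p-values measure the spread between these pools.

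Phosphatidylcholine is the main phospholipid of liver membranes, of the shell of secreted lipoproteins and of bile. Hepatocytes make it by the CDP-choline route, in which choline is phosphorylated, activated to CDP-choline and joined to diacylglycerol, and by stepwise methylation of phosphatidylethanolamine with methyl groups that come from methionine. An MCD diet withholds the substrates of both routes, and mice fed it develop fatty liver with inflammation.

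Levels are given as RPM, reads scaled per M of an adjusted library size, as deposited. The depth recovered from the values was 14.4 to 19.9 M reads per control pool, 18.8 to 22.3 M per KO pool and 13.1 to 20.97 M per anti-Ly6G pool. Chka had the fewest reads of the 10 genes, 339 in 1 control pool, which gives a counting error of 5.43%. All 7 hepatocyte markers were measured, with a summed signal of 105839 to 122676 RPM in control. In none of the 10 genes did a pool lie 2 or more on the log2 scale outside the other pools of its group. Such gaps were rare over all 11791 genes too, with at most 6 genes lower and 4 higher in any pool. Fold changes were computed on log2(signal + 0.5), and a change was called where limma gave an adjusted p under 0.05 over all genes.

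Per kb of transcript, Pemt, the methyltransferase that turns phosphatidylethanolamine into phosphatidylcholine, had the highest control level of the 10 genes, 278 ± 13.8 RPM per kb (SD, n = 4). Chka, a choline kinase, had the lowest, 10.6 ± 1.61. Between them stood Pcyt2 (181 ± 17.8), Etnk2 (159 ± 26.7), Lpcat3 (71.9 ± 9.96), Chkb (55.5 ± 7.92), Chdh (36.7 ± 2.59), Chpt1 (35.9 ± 3.52), Cept1 (20.3 ± 0.713) and Pcyt1a (16.7 ± 1.44). The control pools of Pcyt2 and Etnk2 overlapped, as did those of Lpcat3 and Chkb, and of Chdh and Chpt1, so the order within these pairs was not resolved. The other neighbours in the order did not overlap. In each of the 12 pools the ethanolamine enzyme Pcyt2 stood above its choline counterpart Pcyt1a, and the ethanolamine kinase Etnk2 above Chka. The other ethanolamine kinase, Etnk1, is not among the 10 genes. Its control mean of 8.49 ± 0.621 RPM per kb lay below those of Chka and Chkb.

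**Figure D1:**
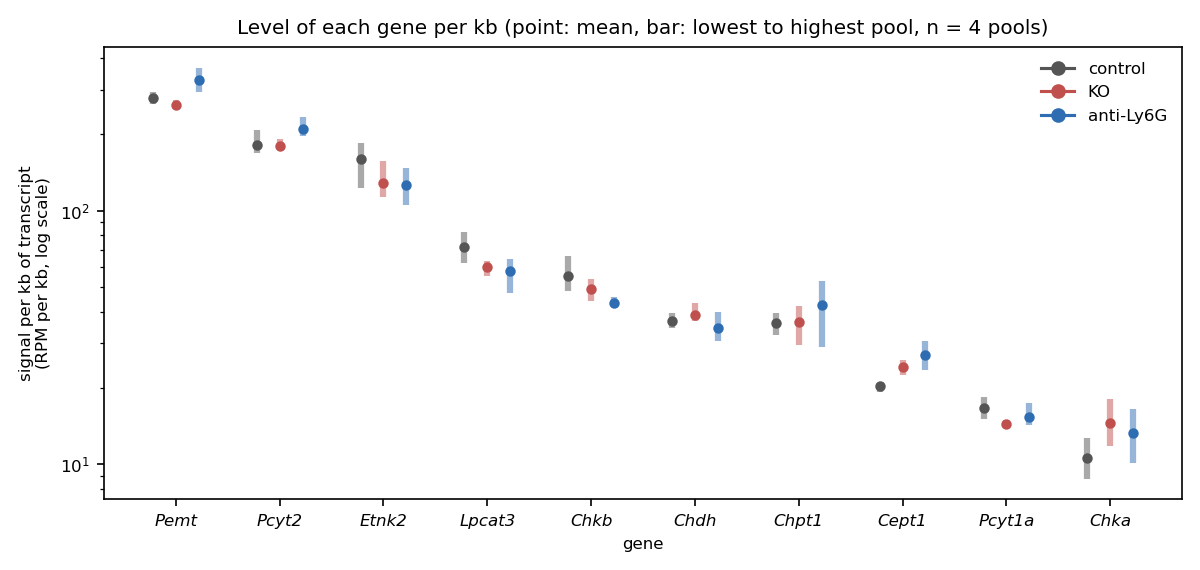
Signal per kb of the principal transcript (RPM per kb, log scale) for the 10 genes, ordered by their control mean; points are means and bars run from the lowest to the highest of the 4 pools of each group. Pemt stands highest and Chka lowest in control, and the bars of Pcyt2 and Etnk2, Lpcat3 and Chkb, and Chdh and Chpt1 overlap there.

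Anti-Ly6G livers differed from control in 4 of the 10 genes: Cept1 and Pemt rose, Chkb and Lpcat3 fell, and the other 6 did not pass. On the log2 scale the rises were 0.40 and 0.23 and the falls -0.35 and -0.31. Over all genes 30.4% were called in that comparison, 15.1% higher and 15.3% lower. None of the 10 (0) was called between KO and control, beside 1.12% of all genes (0.585% higher and 0.534% lower). In KO against anti-Ly6G 1 was called, Pemt, beside 26.8% of all genes (13.6% higher and 13.1% lower). The median log2 fold change of the 10 genes was 0.061 in anti-Ly6G against control, with 5 above and 5 below 0, where the median over all genes was -0.00220. It was -0.048 in KO against control, with 4 above and 6 below 0, where the median over all genes was -0.00128. Both comparisons use the same 4 control pools.

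**Figure D2:**
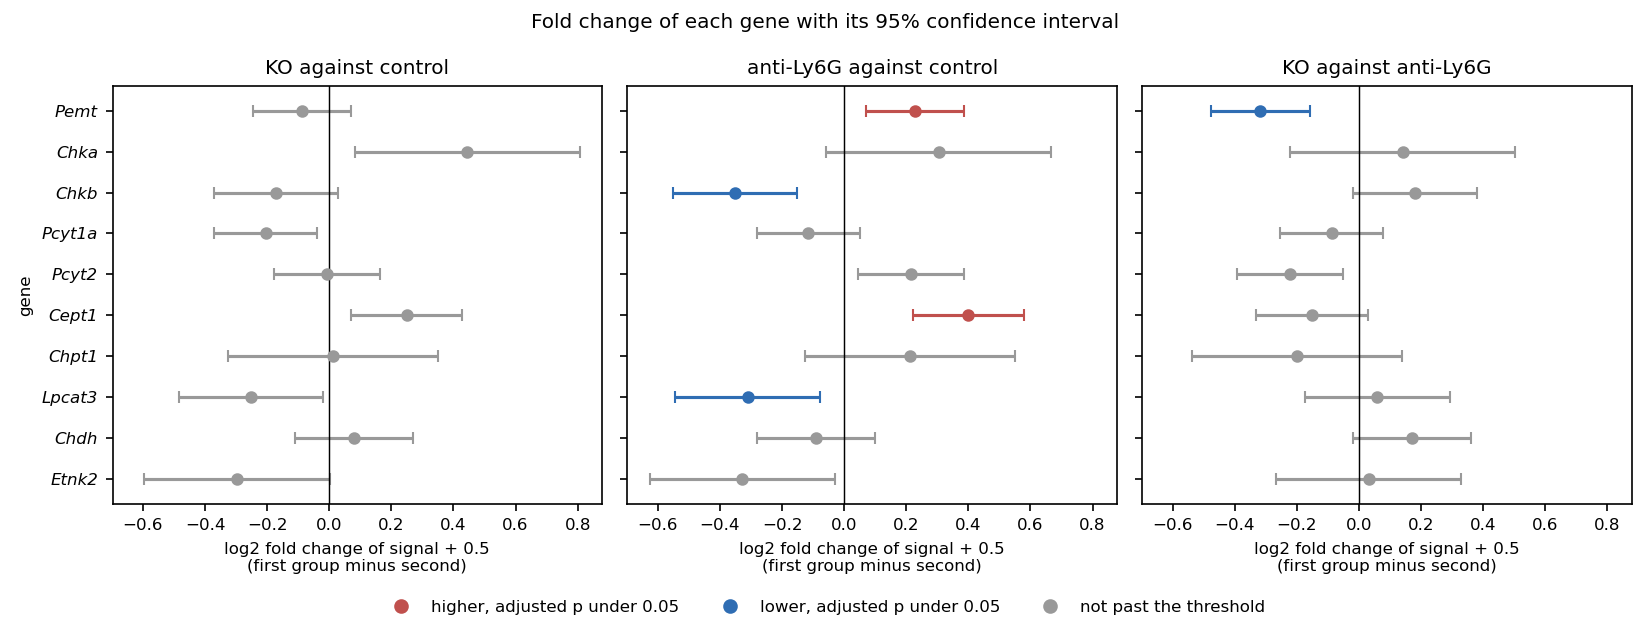
Log2 fold change of signal + 0.5 for each gene in the 3 comparisons (first group minus second), with its 95% confidence interval from limma; red is higher and blue lower at an adjusted p under 0.05. Cept1 and Pemt are higher and Chkb and Lpcat3 lower in anti-Ly6G against control, no gene passes in KO against control, and only Pemt passes in KO against anti-Ly6G.

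The 250 bases before the most upstream RefSeq start site (RefSeq, GRCm38.p6) are shown for the 2 genes that rose and the 2 choline kinases. Against control the fold changes of these kinases had opposite signs, although Chka was not called. Capitals mark CCAAT boxes (CCAAT), GC boxes (GGGCGG) and TATA boxes (TATAAA) found on either strand. Each sequence runs 5′ to 3′ on the strand of its gene, which is minus for Cept1, Pemt and Chkb and plus for Chka. The RefSeq start of Pemt lies 6301 bases downstream of the 5′ end of the GENCODE gene.
Cept1, chr3:106547803-106548052: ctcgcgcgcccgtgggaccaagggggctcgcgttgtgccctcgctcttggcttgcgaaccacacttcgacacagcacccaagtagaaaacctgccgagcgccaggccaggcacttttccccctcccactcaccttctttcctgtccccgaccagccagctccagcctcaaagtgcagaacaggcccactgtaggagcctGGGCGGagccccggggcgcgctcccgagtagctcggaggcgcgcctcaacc
Pemt, chr11:60040189-60040438: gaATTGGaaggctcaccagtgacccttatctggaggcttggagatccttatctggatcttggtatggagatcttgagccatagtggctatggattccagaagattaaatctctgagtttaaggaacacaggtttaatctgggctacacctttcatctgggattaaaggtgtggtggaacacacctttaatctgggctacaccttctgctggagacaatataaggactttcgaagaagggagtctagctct
Chkb, chr15:89429928-89430177: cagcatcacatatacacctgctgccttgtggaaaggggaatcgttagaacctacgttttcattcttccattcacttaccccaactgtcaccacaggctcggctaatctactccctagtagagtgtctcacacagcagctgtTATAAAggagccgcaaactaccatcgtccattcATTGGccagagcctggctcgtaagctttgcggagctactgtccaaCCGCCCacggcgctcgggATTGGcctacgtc
Chka, chr19:3851523-3851772: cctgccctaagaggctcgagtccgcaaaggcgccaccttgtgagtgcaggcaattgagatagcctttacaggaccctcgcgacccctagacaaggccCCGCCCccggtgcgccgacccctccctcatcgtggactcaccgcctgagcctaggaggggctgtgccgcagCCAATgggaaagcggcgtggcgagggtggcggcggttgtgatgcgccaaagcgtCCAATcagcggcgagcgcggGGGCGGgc

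Such windows were matched for 9 of the 10 genes, with 16 start sites among them, and Pcyt2 was not matched. The GC content was 66.8% for Cept1 and 68.0% for Chka, 52.4% for Chkb and 44.8% for Pemt in the windows shown, beside a median of 52.4% over all 32851 windows. Cept1 has 2 further windows in RefSeq, with a GC content of 64.0% and 27.6%, and Pemt has 1, with 52.8%. The GC box occurred in 10 of the 16 windows, from 8 genes, beside 32.7% of all windows, and the CCAAT box in 5, beside 33.8%. Overlapping windows of Cept1 and of Pcyt1a share GC boxes, which were therefore counted more than once. The share of windows of like GC content that hold the box was not computed. The TATA box was found in 1, that of Chkb at 109 bases before the start, and 12.4% of all windows hold it. The sterol response element TCACNCCAC, searched on both strands, was found in 2 overlapping windows of Pcyt1a, 116 bases before the first start site, and 1.05% of all windows hold it. The E-box CACGTG was in 0 of the 16 windows and in 6.02% of all. These are matches of letters, and no binding was measured.

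Pemt is the enzyme of the methylation route and is known mainly from hepatocytes (ENSMUSG00000000301, chromosome 11, 59970614 to 60046489, minus strand, GENCODE vM21 on GRCm38). Its control pools 1 to 4 read 296, 274, 283 and 263 RPM, its KO pools 275, 265, 256 and 252, and its anti-Ly6G pools 319, 329.9, 294 and 368. All KO pools lay below all anti-Ly6G pools, whereas anti-Ly6G pool 3 lay just below control pool 1. Pemt rose in the anti-Ly6G group from 279 ± 13.8 to 328 ± 30.7 (log2 0.23 ± 0.073 SE, limma adjusted p = 0.0310). KO stood below anti-Ly6G (log2 -0.32 ± 0.073 SE, limma adjusted p = 0.00670), and KO against control did not pass (-0.089, limma adjusted p = 0.542). The rise against control passed in 3 of 8 fits that left out 1 pool. It was lost without control 2 (0.22, 0.0733), control 3 (0.24, 0.0554), control 4 (0.20, 0.0803), anti-Ly6G 2 (0.22, 0.0658) or anti-Ly6G 4 (0.17, 0.0683), each pair giving the log2 fold change and limma's adjusted p. It was also lost with the mitochondria label as a covariate (0.32, limma adjusted p = 0.135). The difference between KO and anti-Ly6G passed whichever pool was left out. Among NZB-labelled pools alone it was -0.36 and did not pass (limma adjusted p = 0.0576).

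The CDP-choline route opens with choline kinase, which Chka and Chkb encode. Chka (ENSMUSG00000024843, chromosome 19, 3851773 to 3894369, plus strand) read 32.3, 26.2, 27.1 and 22.4 RPM over the control pools, 30.0, 37.1, 46.1 and 35.1 over the KO pools and 39.9, 42.0, 25.9 and 27.9 over the anti-Ly6G pools. KO pools 2 to 4 lay above every control pool, and anti-Ly6G pools 3 and 4 lay within the control range. The KO mean of 37.1 ± 6.74 and the control mean of 27.0 ± 4.10 did not differ past the threshold (log2 0.45 ± 0.17 SE, 95% interval 0.083 to 0.81, limma adjusted p = 0.183). Anti-Ly6G against control gave 0.30 (95% interval -0.058 to 0.67, limma adjusted p = 0.187).

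Chkb, the other choline kinase gene (ENSMUSG00000022617, chromosome 15, 89426360 to 89429908, minus strand), read 113, 96.9, 87.0 and 82.1 RPM over the control pools, 82.7, 75.4, 91.5 and 84.7 over the KO pools and 78.0, 71.9, 72.7 and 71.6 over the anti-Ly6G pools. The anti-Ly6G pools lay close together and below every control pool, while the KO pools overlapped both other groups. Chkb fell in the anti-Ly6G group from 94.7 ± 13.5 to 73.5 ± 2.97 (log2 -0.35 ± 0.093 SE, limma adjusted p = 0.0119), whichever pool was left out. With the mitochondria label as a covariate it was -0.51 and did not pass (limma adjusted p = 0.0619). KO did not pass against control (-0.17, limma adjusted p = 0.336) or against anti-Ly6G (0.18, 0.164). The level of Chkb is uncertain, since only 43.7% of its 25-mers occur in no other annotated gene, and most shared ones lie in the overlapping gene model Gm44502 on the same strand, which was not analysed here. C730034F03Rik, which overlaps it on the opposite strand, read 2.86 ± 0.409 for control and 3.58 ± 0.824 for anti-Ly6G (0.26, limma adjusted p = 0.305).

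The ratio of Chka to Chkb per kb was computed in each pool, a choice made with the values known and so given without a test. Over pools 1 to 4 it was 0.192, 0.181, 0.209 and 0.183 for control, 0.243, 0.329, 0.338 and 0.278 for KO and 0.343, 0.391, 0.239 and 0.261 for anti-Ly6G. Every KO and every anti-Ly6G pool had a higher ratio than any control pool. Chkb was called lower in anti-Ly6G against control from the same values, and Chka was called in no comparison. How often ratios of other gene pairs separate in this way was not computed. The ratio of Pemt to Lpcat3 ran from 3.50 to 4.36 for control, 4.19 to 4.55 for KO and 4.93 to 6.75 for anti-Ly6G, whose pools lay above all others. Pemt was called higher and Lpcat3 lower in anti-Ly6G against control from the same values, so this separation is no further result. Pemt to Pcyt1a, which compares the methylation route with the regulated step of the CDP-choline route, ran from 14.2 to 19.6 for control, 17.5 to 18.9 for KO and 16.9 to 25.1 for anti-Ly6G, with overlap between all groups. Ratios of Cept1 to Chpt1, Pcyt2 to Pcyt1a and Etnk2 to Chka were also computed, and in each of them all groups overlapped.

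**Figure D3:**
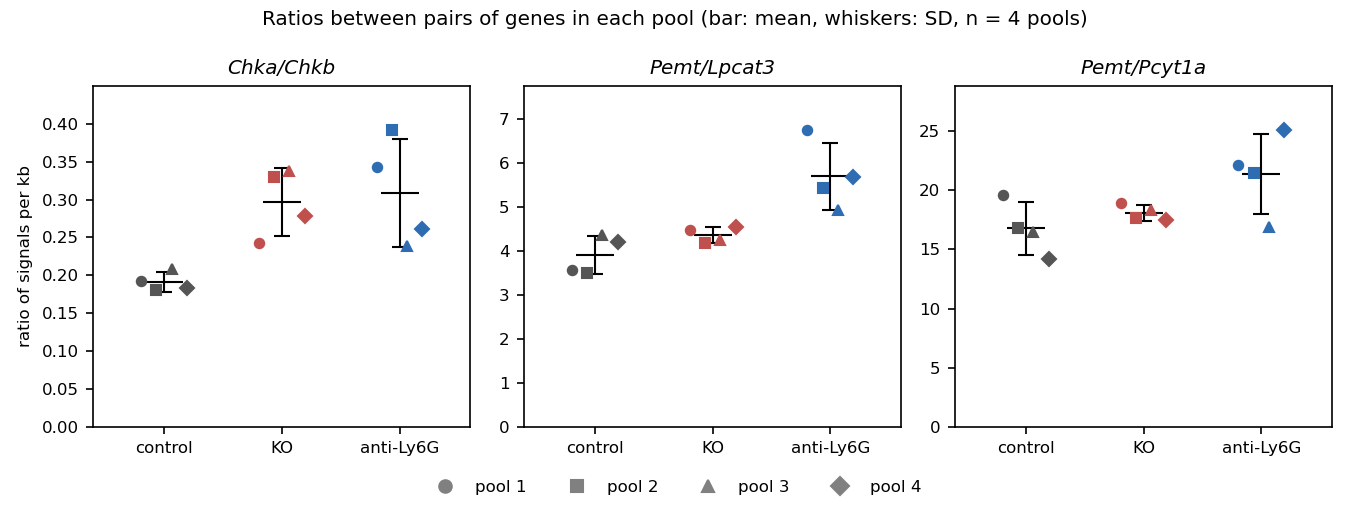
Ratio of signals per kb in each pool for 3 pairs of genes chosen with the values known. Symbols mark pools 1 to 4, horizontal bars the mean and whiskers the SD of 4 pools. For Chka/Chkb all control pools lie below all KO and anti-Ly6G pools, for Pemt/Lpcat3 all anti-Ly6G pools lie above the rest, and for Pemt/Pcyt1a the groups overlap.

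Pcyt1a encodes the enzyme that makes CDP-choline, the regulated step of the route (ENSMUSG00000005615, chromosome 16, 32430921 to 32475070, plus strand). Its pools read 72.1, 77.9, 81.7 and 88.5 RPM for control, 69.5, 71.6, 66.9 and 69.0 for KO and 68.7, 73.3, 83.3 and 70.1 for anti-Ly6G. The KO pools formed a narrow band below every control pool, but the difference did not pass over all genes (log2 -0.20 ± 0.077 SE, limma adjusted p = 0.182). For anti-Ly6G against control it was -0.12 (95% interval -0.28 to 0.050, limma adjusted p = 0.273).

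Pcyt2 encodes the enzyme that makes CDP-ethanolamine, a precursor of the phosphatidylethanolamine that Pemt methylates (ENSMUSG00000025137, chromosome 11, 120610087 to 120617936, minus strand). Its pools read 391, 326, 331 and 317 RPM for control, 336, 333, 360.2 and 326 for KO and 371, 389, 384 and 439 for anti-Ly6G. Control pool 1 lay among the anti-Ly6G pools and the other control pools below them. Anti-Ly6G against control missed the threshold (log2 0.22 ± 0.080 SE, limma adjusted p = 0.0540) and passed without control 1 (0.28, limma adjusted p = 0.0149) and in DESeq2 (adjusted p = 0.0378). The KO pools lay below all anti-Ly6G pools, a difference that limma did not call (-0.22, adjusted p = 0.0525) and DESeq2 on the recovered reads did (adjusted p = 0.0324).

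Etnk2, an ethanolamine kinase that starts the same route (ENSMUSG00000070644, chromosome 1, 133363572 to 133380336, plus strand), read 425, 283, 394 and 361 RPM over the control pools, 359, 261, 292 and 275 over the KO pools and 270.3, 312, 242 and 337 over the anti-Ly6G pools. Control pool 2 lay below the other 3 control pools and within the range of both other groups. Etnk2 did not pass for KO (-0.30, limma adjusted p = 0.269) or anti-Ly6G (-0.33, 0.0881) against control, and the latter passed without control 2 (-0.45, limma adjusted p = 0.0263) and with pools scaled to equal totals (-0.37, limma adjusted p = 0.0398).

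Cept1 and Chpt1 encode the enzymes of the last step, which join CDP-choline to diacylglycerol, and the Cept1 enzyme also accepts CDP-ethanolamine. Cept1 (ENSMUSG00000040774, chromosome 3, 106502260 to 106547802, minus strand) read 58.2, 58.4, 57.9 and 54.2 RPM over the control pools, 72.7, 70.8, 63.4 and 65.5 over the KO pools and 80.5, 86.4, 66.3 and 70.6 over the anti-Ly6G pools. All 8 KO and anti-Ly6G pools lay above the highest control pool. Cept1 rose in the anti-Ly6G group from 57.2 ± 2.01 to 76.0 ± 9.13 (log2 0.40 ± 0.083 SE, limma adjusted p = 0.00335) and passed in all 19 other fits run, with the mitochondria label as a covariate at 0.56 (limma adjusted p = 0.0306). The KO mean of 68.1 ± 4.405 did not differ from control past the threshold (log2 0.25 ± 0.083 SE, limma adjusted p = 0.141), nor did the C57-labelled KO pools alone (0.33, limma adjusted p = 0.0673). Exons of Cept1 overlap Dennd2d and Dram2 on the opposite strand, 76.6% of its 25-mers are its own, and whether counting used strand is not given in the sources used here. Dennd2d read 8.53 ± 0.733 for control and 10.8 ± 1.92 for anti-Ly6G (0.31, limma adjusted p = 0.0548), and Dram2 75.0 ± 5.61 and 80.6 ± 9.14 (0.10, 0.405).

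Chpt1, whose enzyme uses CDP-choline (ENSMUSG00000060002, chromosome 10, 88452745 to 88504073, minus strand), read 126, 149.7, 154 and 131 RPM over the control pools, 164, 138, 115 and 151 over the KO pools and 179, 207, 113 and 163 over the anti-Ly6G pools. Anti-Ly6G pool 3 lay below every control pool and the other 3 above them. The difference from control did not pass (0.21, limma adjusted p = 0.324), and without anti-Ly6G 3 it did (0.38, 0.0324). For KO against control it was 0.013 (95% interval -0.33 to 0.35, limma adjusted p = 0.974). That anti-Ly6G pool also had the lowest Cept1, Chka, Pemt and Etnk2 signal and the highest Pcyt1a and Chdh signal of its group.

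Lpcat3 encodes the acyltransferase that places polyunsaturated chains into phosphatidylcholine (ENSMUSG00000004270, chromosome 6, 124663027 to 124704418, plus strand). Its pools read 188, 178, 148 and 142 RPM for control, 139.7, 144, 137 and 126 for KO and 108, 138, 136 and 147 for anti-Ly6G. Control pools 1 and 2 lay above all other pools. Lpcat3 fell in the anti-Ly6G group from 164 ± 22.7 to 132 ± 17.1 (log2 -0.31 ± 0.11 SE, limma adjusted p = 0.0438). It no longer passed after removal of control 1 (-0.24, 0.124), control 2 (-0.27, 0.118), anti-Ly6G 1 (-0.22, 0.126), anti-Ly6G 2 (-0.33, 0.0610) or anti-Ly6G 3 (-0.33, 0.0570), each pair giving the log2 fold change and limma's adjusted p. It was also lost with the mitochondria label as a covariate (-0.20, limma adjusted p = 0.522). KO against control was -0.25 and did not pass (limma adjusted p = 0.235). Exons of Lpcat3 overlap Emg1 on the opposite strand, and 90.7% of its 25-mers occur in no other annotated gene. Emg1 read 29.1 ± 1.91 for control and 32.1 ± 2.58 for anti-Ly6G (0.14, limma adjusted p = 0.166).

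Chdh encodes the mitochondrial choline dehydrogenase, which commits choline to betaine (ENSMUSG00000015970, chromosome 14, 30009023 to 30040527, plus strand). Its pools read 225, 197, 217 and 196 RPM for control, 215, 208, 246 and 214 for KO and 174, 201, 227 and 185 for anti-Ly6G, and the 3 groups overlapped. It did not pass for KO against control (log2 0.080, 95% interval -0.11 to 0.27, limma adjusted p = 0.662) or for anti-Ly6G against control (-0.090, -0.28 to 0.10, 0.462).

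**Figure D4:**
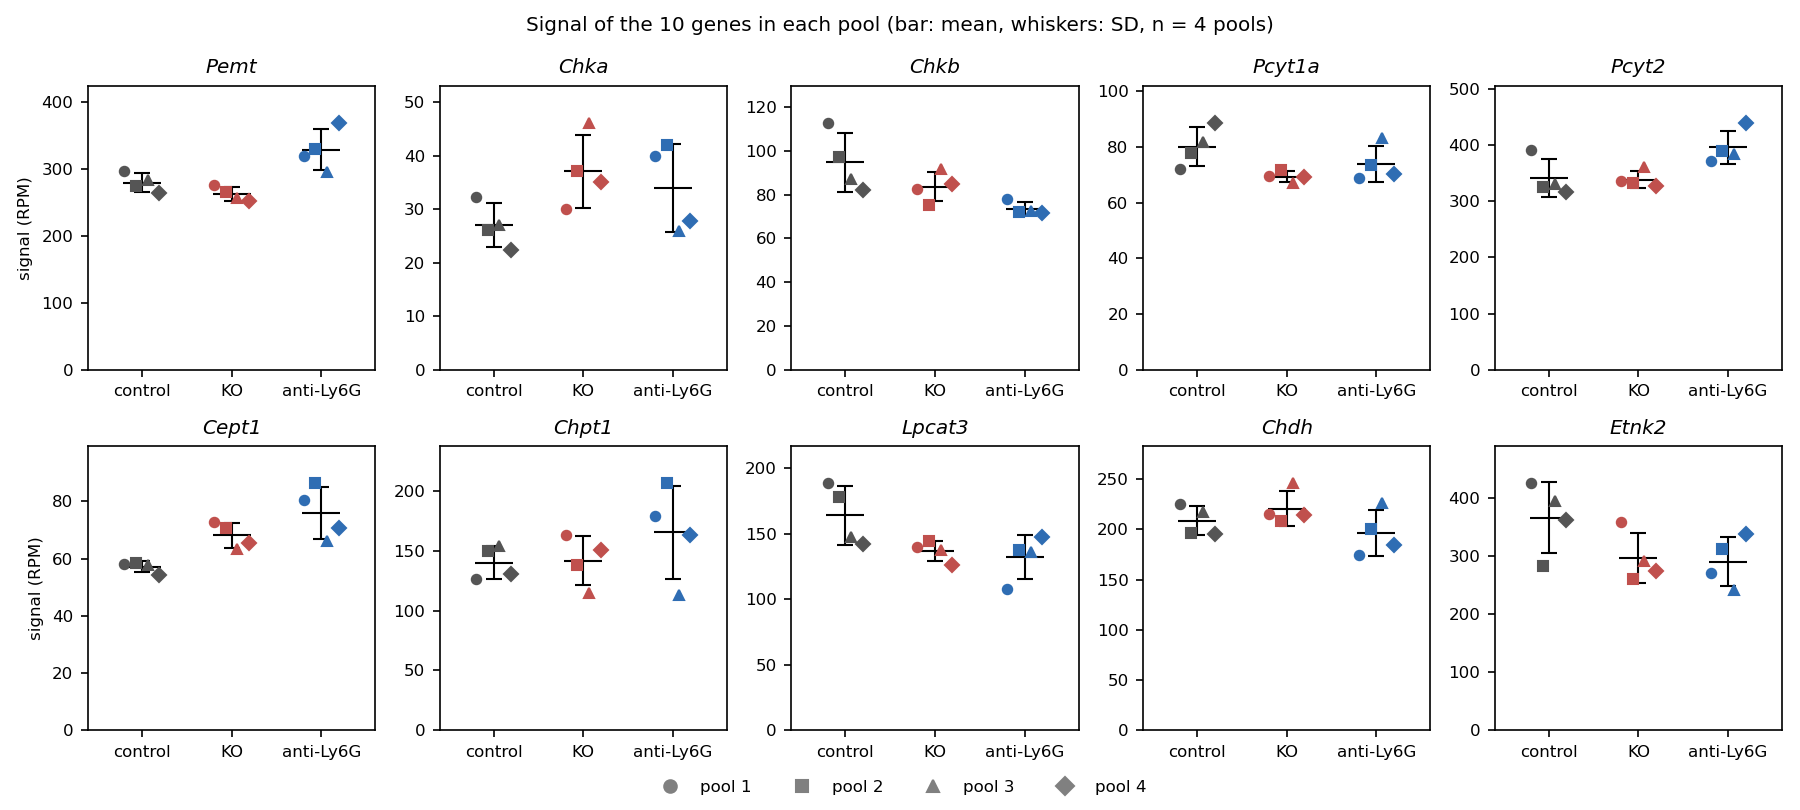
Signal (RPM) of the 10 genes in every pool, with the mean and SD of 4 pools per group; symbols mark pools 1 to 4, which are not paired across groups. All anti-Ly6G pools lie above control for Cept1 and below it for Chkb, and the KO pools of Pcyt1a lie below those of control.

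Other criteria gave the following counts. For KO against control 0 of the 10 genes passed in edgeR and 0 in DESeq2 on the recovered reads, beside 1.3% and 4.9% of all genes. An unadjusted limma p under 0.05 was reached by 4 (Chka, Pcyt1a, Cept1 and Lpcat3), beside 18.9% of all genes, and the pools of 2 (Pcyt1a and Cept1) did not overlap, beside 12.4%. For anti-Ly6G against control edgeR called 4 and DESeq2 5, beside 30.2% and 32.1%, and 6 had an unadjusted p under 0.05, beside 42.3%. The pools of 2 (Chkb and Cept1) did not overlap, beside 27.3%. For KO against anti-Ly6G edgeR called 1 and DESeq2 2, beside 26.9% and 29.1%, and 2 had an unadjusted p under 0.05, beside 39.6%. The pools of 2 (Pemt and Pcyt2) did not overlap, beside 27.3%.

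RNA came from whole liver, so fewer cells of a type and less RNA per cell cannot be told apart. Markers of non-parenchymal cells moved between the same groups. Over all genes 15.3% were called lower in anti-Ly6G against control. Of 9 macrophage markers 5 fell in the anti-Ly6G group, and their summed signal was 428 to 803 RPM for control, 648 to 883 for KO and 239.9 to 342 for anti-Ly6G. Of 8 stellate cell and myofibroblast markers 5 fell (110.3 to 222, 194 to 294 and 72.5 to 85.7). Of 6 endothelial markers 3 fell (180.2 to 202, 117 to 196 and 131 to 163). Of 8 neutrophil markers 4 were measured and 3 fell (12.5 to 21.4, 17.4 to 20.9 and 6.30 to 10.7), while Ly6g, Mpo, Elane and Retnlg were not analysed here. Both bile duct markers measured, of 5 listed, fell (40.9 to 62.9, 58.0 to 81.6 and 25.9 to 37.6), as did both lymphocyte markers measured, of 5 listed (6.59 to 9.45, 7.18 to 9.94 and 2.75 to 4.31). Most of the bile duct sum was Spp1, with means of 41.1 RPM for control, 61.2 for KO and 26.5 for anti-Ly6G. The other bile duct marker, Sox9, had means of 9.49, 8.26 and 5.88, so its KO mean did not follow the sum. Of 7 hepatocyte markers 0 passed in any comparison, with sums of 95851 to 124611 for KO and 98675 to 142783 for anti-Ly6G. In KO against control Tagln, of the stellate cell and myofibroblast list, was the only marker called (log2 0.60, limma adjusted p = 0.0276), beside 0.585% of all genes higher. That rise was lost without control 2 or 3 or KO 2 or 3, with limma adjusted p up to 0.0855. It was also lost with the mitochondria label as a covariate (0.63, limma adjusted p = 0.0588). With the mitochondria label as a covariate the falls past the threshold in limma were 2 of 5 for macrophage markers, 0 of 5 for stellate cell and myofibroblast markers, 3 of 3 for endothelial markers, 2 of 3 for neutrophil markers, 1 of 2 for bile duct markers and 1 of 2 for lymphocyte markers. Leaving out single pools ended the called falls of Csf3r, Kdr, Spp1 and Tagln in the anti-Ly6G group. Limma adjusted p reached 0.0828 for Csf3r and 0.114 for Kdr (both without anti-Ly6G 2). It reached 0.0570 for Spp1 (without control 4) and 0.0631 for Tagln (without control 1). The part of these cells in the results for the 10 genes was not tested.

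Around the 10 genes, 62 of 72 listed genes of choline and phospholipid handling were measured. In the anti-Ly6G group 8 rose and 11 fell against control, 30.6% of the 62 beside 30.4% of all genes. In KO against control 1 rose and 1 fell, 3.23% beside 1.12%. Among 6 measured choline transporters 4 fell in the anti-Ly6G group, beside 15.3% of all genes, and the median log2 fold change of the 6 was -0.41. 1 other transporter was called and is the listed gene that is not reported here. The choline and heme transporter genes Flvcr1 (from 5.43 ± 0.704 to 3.44 ± 0.837, limma adjusted p = 0.00849) and Flvcr2 (from 21.2 ± 3.398 to 14.9 ± 2.16, 0.00766) fell. The choline transporter-like genes of the Slc44 family fell in 2 cases, Slc44a3 (from 5.49 ± 1.04 to 3.79 ± 0.299, limma adjusted p = 0.0240) and Slc44a2 (from 12.1 ± 1.68 to 9.31 ± 1.23, 0.0360). The Slc44a2 call was lost without control 2, 3 or 4 or anti-Ly6G 2 or 4, with limma adjusted p up to 0.104, and that of Slc44a3 without control 2 or anti-Ly6G 2, with adjusted p up to 0.0778. In the fit with mitochondria label as covariate, the 4 that fell did not pass (limma adjusted p from 0.0723 for Slc44a2 to 0.203 for Slc44a3).

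In the betaine and methyl group route 2 of 12 genes rose and 2 fell in the anti-Ly6G group, beside 15.1% higher and 15.3% lower over all genes. Dmgdh and Sardh encode the mitochondrial dehydrogenases of dimethylglycine and sarcosine, consecutive steps after betaine. Dmgdh rose from 531 ± 80.1 to 769 ± 124 RPM (log2 0.53 ± 0.14 SE, limma adjusted p = 0.0111) and Sardh fell from 655 ± 81.6 to 406 ± 76.6 (log2 -0.70 ± 0.15 SE, limma adjusted p = 0.00376). In both genes the groups did not overlap and the call held whichever pool was left out. With the mitochondria label as a covariate Dmgdh passed (0.82, limma adjusted p = 0.0421) and Sardh did not (-0.23, 0.519). Mat2a, a methionine adenosyltransferase, rose from 126 ± 11.5 to 163 ± 9.17 (log2 0.38 ± 0.078 SE, limma adjusted p = 0.00332). Ahcy, which clears the S-adenosylhomocysteine that methyltransferases leave, fell from 2392 ± 414 to 1691 ± 219.7 (log2 -0.49 ± 0.14 SE, limma adjusted p = 0.0176). The Ahcy call was lost without control 1 (-0.41, 0.0531) or control 3 (-0.43, 0.0531), and neither Mat2a (0.23, limma adjusted p = 0.278) nor Ahcy (-0.32, 0.422) passed with the covariate.

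Of 16 genes that cleave or convert choline phospholipids or act on the products, 3 rose and 0 fell in the anti-Ly6G group. Over all genes 15.1% were higher and 15.3% lower. Gdpd3, a lysophospholipase D, had 0 to 6 reads per control pool, 4 to 9 per KO pool and 119 to 356 per anti-Ly6G pool. Its pools read 0, 0.301, 0.238 and 0.198 RPM for control, 0.358, 0.317, 0.374 and 0.191 for KO and 16.6, 8.46, 17.0 and 9.62 for anti-Ly6G (limma adjusted p = 8.47e-08 against control). It passed with the mitochondria label as a covariate too (limma adjusted p = 0.000122). Pnpla8, a phospholipase, rose from 134 ± 4.34 to 165 ± 17.98 (log2 0.29 ± 0.077 SE, limma adjusted p = 0.0116) and Sgms1, a sphingomyelin synthase, from 13.9 ± 1.41 to 18.5 ± 2.45 (log2 0.40 ± 0.10 SE, limma adjusted p = 0.00806). With the covariate neither passed (limma adjusted p = 0.265 and 0.253).

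Of 9 other genes of acyl-chain remodelling, Lpcat2, another lysophosphatidylcholine acyltransferase, fell in the anti-Ly6G group from 4.57 ± 0.353 to 2.76 ± 0.867 (log2 -0.67 ± 0.16 SE, limma adjusted p = 0.00764) and Pla2g12b, a secreted protein of the phospholipase A2 family, rose from 35.9 ± 3.30 to 42.8 ± 2.19 (log2 0.26 ± 0.080 SE, limma adjusted p = 0.0271). The Pla2g12b call was lost without control 4, anti-Ly6G 1 or anti-Ly6G 2, with limma adjusted p up to 0.0776. Of 8 other genes of the CDP-choline and CDP-ethanolamine route, Etnk1, the other ethanolamine kinase, rose from 54.6 ± 4.00 to 67.8 ± 6.26 (log2 0.31 ± 0.085 SE, limma adjusted p = 0.0150). Sgpl1, which yields phosphoethanolamine from sphingosine phosphate, fell from 74.6 ± 5.80 to 62.5 ± 2.73 (log2 -0.25 ± 0.080 SE, limma adjusted p = 0.0291), and the call was lost without control 2 or 4 or anti-Ly6G 2 or 3, with limma adjusted p up to 0.0929. Beside the 15.1% higher and 15.3% lower over all genes, 3 of 8 carriers and exporters of phosphatidylcholine fell. They were Pltp, the phospholipid transfer protein (from 31.4 ± 2.21 to 22.5 ± 3.84, limma adjusted p = 0.00764), Stard7 (from 146 ± 9.96 to 129 ± 3.18, 0.0362) and Pitpnb (from 61.9 ± 3.47 to 54.7 ± 1.24, 0.0351). Stard7 was lost without control 1, 2 or 3 or anti-Ly6G 1 or 2, with limma adjusted p up to 0.0959, and Pitpnb without control 1 or 3 or anti-Ly6G 1, 2 or 3, with adjusted p up to 0.0925. In the fit with mitochondria label as covariate, Pltp passed (limma adjusted p = 0.0391) and Lpcat2, Pla2g12b, Etnk1, Sgpl1, Stard7 and Pitpnb did not (adjusted p from 0.0903 for Pla2g12b to 0.937 for Sgpl1). Of the 3 genes that supply phosphatidylserine and phosphatidylethanolamine 0 passed against control in limma. The most abundant, Ptdss1 and Pisd, read 47.6 ± 4.13 and 40.4 ± 2.88 for control and 56.2 ± 7.03 and 40.7 ± 3.396 for anti-Ly6G (limma adjusted p = 0.0955 and 0.932).

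The 2 listed genes called in KO against control were Gpcpd1 and Phospho1. Gpcpd1, which splits glycerophosphocholine, read 216, 229, 181 and 210.0 RPM over the control pools and 149, 115, 117 and 165 over the KO pools. Phospho1, a phosphatase of phosphocholine and phosphoethanolamine, read 18.1, 26.8, 25.7 and 27.4 and 37.4, 48.0, 42.4 and 37.3. In neither gene did the groups overlap. Gpcpd1 fell (log2 -0.62 ± 0.12 SE, limma adjusted p = 0.0345) and Phospho1 rose (log2 0.75 ± 0.15 SE, limma adjusted p = 0.0380). Gpcpd1 was lost without control 1 or 2 or KO 1, 2 or 3, with limma adjusted p up to 0.113 (without control 2), and Phospho1 passed only without control 4 of the 8 pools left out in turn, with adjusted p up to 0.107 (without KO 3). With the C57-labelled KO pools alone neither passed (-0.66 and 0.80, limma adjusted p = 0.0554 and 0.0769). In the anti-Ly6G group Gpcpd1 (169 ± 21.4) and Phospho1 (30.4 ± 6.30) did not pass against control.

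**Figure D5:**
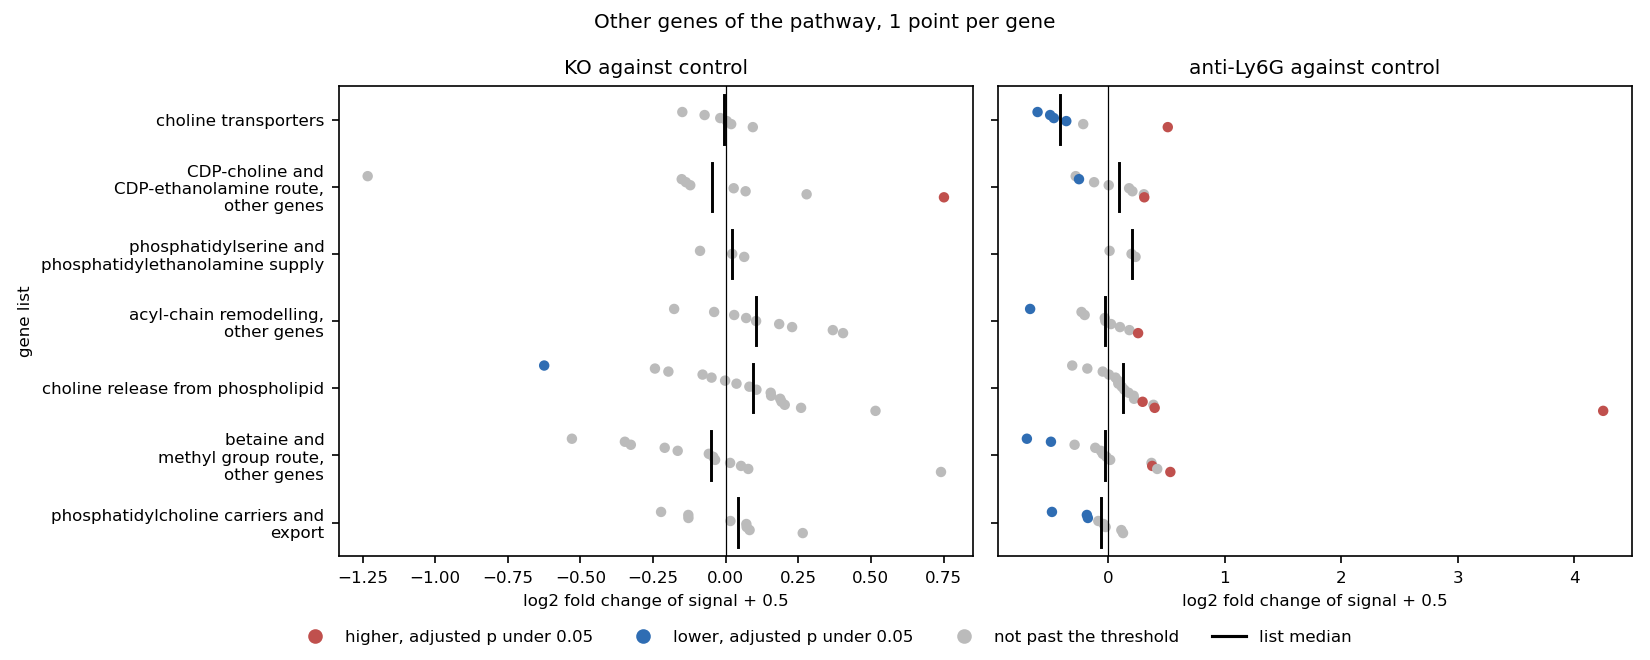
Log2 fold change of signal + 0.5 for the 62 other genes in 7 lists, 1 point per gene, in KO and in anti-Ly6G against control, with list medians as black bars and calls at an adjusted p under 0.05 in colour (the panels have different scales). In KO only Gpcpd1 and Phospho1 are coloured. In anti-Ly6G the coloured points of the transporter list include 4 falls, and Gdpd3 stands alone at the right.

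Cept1 had the lowest p of the 10 genes in a comparison with control, and the genes most like it over the 12 pools were Dhrs7b (Pearson r = 0.955), Vti1b (0.948), Mplkip (0.936), Crp (0.931), Pcmtd1 (0.923). Each r is a description over pools that share group means. Dhrs7b read 14.8 ± 1.44 RPM for control, 17.9 ± 1.69 for KO and 20.4 ± 1.85 for anti-Ly6G. That order of means is the same as for Cept1 and largely follows from picking the gene by r.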

How the data were processed

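Liver RNA of 12 pools was read, per the labels' protocols, on the Illumina Genome Analyzer IIx. The table that the authors deposited holds a scaled signal for every gene. The submitters' processing notes name Bowtie2 2.0.6, RSEM 1.2.3, cutadapt 1.2.1, GRCm38 and edgeR and give them no roles. All values of a column were multiples of 1 step within 0.01, which was taken as 1 read. TMM factors computed from these reads returned the deposited scale, so the signal is called RPM. The whole-read check on low values held for 4 columns, so for the other 8 the recovered reads are less certain.

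All genes entered 1 limma 3.58.1 fit (R 4.3.3, trend) on log2(signal + 0.5) modelled by group alone, with Benjamini-Hochberg adjustment over 11791 genes and a minimum mean of 1 in a group. edgeR 4.0.16 and DESeq2 1.42.0 on recovered reads, other scalings, filters and pseudocounts, the mitochondria label, the replicate block and leaving out each pool were alternatives. The fit was tested on simulated data. Lengths are those of principal transcripts in GENCODE vM21.

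The genes and lists were chosen with earlier results of these data known. Besides the 10 genes, the rule named listed genes called against control, the 2 most abundant of a list without calls, and the 5 genes most like the one of lowest p. C730034F03Rik, Dennd2d, Dram2 and Emg1 were added as overlapping genes after their values were seen. Exons of Chka, Pcyt1a, Chpt1 and Chdh overlap other genes too. The shares of their 25-mers found in no other annotated gene were 96.0%, 90.0%, 85.9% and 90.7%. 1 listed gene that the rule names is not reported here. Counting errors cover counting only.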

Additional observations from a re-analysis of the deposited data

Results flagged for a closer look

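Among the 30 sets of 4 pools (10 genes in 3 groups), 2 held a pool that stood far from the other 3, where chance gives about 1 in 20 sets. Control pool 4 of Cept1, at 54.2 RPM, lay below the others, and without it the rise in the anti-Ly6G group was 0.37 (limma adjusted p = 0.0101). Anti-Ly6G pool 1 of Chkb, at 77.95 RPM, lay above the others, and without it the fall was -0.38 (limma adjusted p = 0.0168).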

How the results depend on the processing

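In KO against control 0 of the 10 genes were called in all 20 alternatives. In anti-Ly6G against control 4 were called, 5 with equal totals (Etnk2 gained), 5 with DESeq2 (Pcyt2 gained), 2 in a fit of those groups alone, 1 with the mitochondria label as a covariate, 3 with the replicate block and 2 to 4 without 1 pool. In KO against anti-Ly6G 1 was called, 3 with equal totals, 2 with DESeq2, 0 with NZB-labelled pools alone and 1 to 3 without 1 pool. Calls of listed pathway genes in KO against control numbered 2, 1 with equal totals, 5 with DESeq2, 1 with the replicate block, 0 with the covariate, 0 with C57-labelled pools alone and 0 to 4 without 1 pool. They numbered 19 in anti-Ly6G against control (4 with the covariate) and 18 in KO against anti-Ly6G (11 with the covariate, 6 with NZB-labelled pools alone). Calls over all genes in KO against control numbered 132, 577 with DESeq2, 20 with the replicate block, 79 with the covariate and 3 to 319 without 1 pool (3 without control 2, 319 without control 4). They numbered 3580 in anti-Ly6G against control (973 with the covariate) and 3157 in KO against anti-Ly6G (1555 with NZB-labelled pools alone). The cause was not tested.

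Signs turned in genes that were not called. In KO against control Pcyt2 (-0.0070) turned to 0.060 with equal totals, 0.060 without control 1, 0.00142 without KO 2 and 0.010 without KO 4, and lay at -0.041 without control 4. Chpt1 (0.013) turned to -0.036 without control 1, -0.019 without control 4, -0.059 without KO 1 and -0.021 without KO 4, and reached 0.11 without KO 3. In KO against anti-Ly6G Pcyt1a (-0.089) turned to 0.021 with equal totals, Lpcat3 (0.059) to -0.036 without anti-Ly6G 1 (0.11 without anti-Ly6G 4), and Etnk2 (0.031) to -0.025 with the covariate, -0.025 with NZB-labelled pools alone, -0.064 without KO 1 and -0.052 without anti-Ly6G 3 (0.11 without anti-Ly6G 4). With equal totals the share of higher calls went from 52.3% to 76.9% in KO against control, 49.6% to 39.1% in anti-Ly6G against control and 50.9% to 76.9% in KO against anti-Ly6G. Same-numbered pools deviated together with r over 0.1 in 2, 0 and 2 of 4 pairs of these comparisons, and were not taken as paired. In these comparisons 3, 1 and 1 of the 4 pools of the first-named group correlated best with their own number. Chance alone gives about 1 of 4, so only KO against control holds a hint, from the data and not from the design. The replicate block lost the Lpcat3 call (-0.31, limma adjusted p = 0.0657). Of the 10 genes Chka, at 339 reads in 1 pool, had the fewest reads.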
